A study of Mus musculus with 4 samples.

Results

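The cytosolic nucleic acid sensors and adaptors are the genes with which a cell detects DNA or RNA in its cytosol and passes the signal on. They were taken as a named list of 10 genes, out of 35905 genes with a matched transcript. The list holds the Z-form nucleic acid sensor Zbp1, the RNA sensors Rigi (Ddx58 in the annotation used), Ifih1 and Dhx58, the DNA sensor Cgas and its adaptor Sting1 (Tmem173 in the annotation used), the RNA-sensing adaptor Mavs, the kinase Tbk1, the transcription factor Irf3 and the DNA exonuclease Trex1. All 10 were found in the files, and all 10 passed the filter on low counts, which kept 13718 genes. The rule names genes and uses no measured value.

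The study used Lewis lung carcinoma cells (LLC), a cell line that arose from a lung tumour of the mouse. The TdTomato-labelled cells had grown for 4 weeks as subcutaneous flank tumours in C57BL/6 hosts, and the cells sorted, which carried TdTomato but not the leukocyte antigen CD45, were used for bulk poly-A RNA sequencing. Every host, controls included, carried floxed alleles of Padi4 (Padi4fl/fl). Hosts called WT lacked the driver (Mrp8Cre-) and hosts called PAD4-DN carried it (Mrp8Cre+). Mrp8Cre is active mainly in neutrophils, so the deletion lies in host cells and not in the sorted cancer cells, and the hosts keep Padi4 in their other cells. Each genotype had 2 libraries, and nothing in the labels says whether they came from separate animals, so the p-values measure only the spread between libraries. Values below are given for replicate 1 and then replicate 2 of each genotype. The age of the hosts is not given in the sources used here.

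RIG-I, the product of Rigi, and MDA5, the product of Ifih1, bind viral or self RNA and signal through MAVS on mitochondria. LGP2, the product of Dhx58, is a related helicase that tunes them. cGAS binds DNA and makes the cyclic dinucleotide cGAMP, which activates STING. Both routes end in TBK1, which phosphorylates IRF3 and so starts transcription of type I interferon. Zbp1, Rigi, Ifih1 and Dhx58 are themselves interferon-stimulated genes, and many tumour lines hold parts of these routes at low levels.

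Libraries held 20036322 to 25327974 estimated counts. Padi4, which encodes the deiminase PAD4, had 0 and 2 counts (WT) against 6 and 0 (PAD4-DN), and since the deletion was made in host cells these counts check neither it nor the labels. The simple-epithelium keratins Krt8 and Krt18 lay between 158 and 217 CPM (counts scaled to a library of 1000000), while the epithelial adhesion genes Epcam and Cdh1 had at most 7 counts in any library and the lung gene Sftpc had 0. Ptprc, which encodes CD45, was at 2.20 and 1.71 CPM (WT) against 5.42 and 0.713 CPM (PAD4-DN). The 8 pan-leukocyte markers, of which all 8 were tested and none was at 0 throughout, summed to 88.2 and 61.0 CPM (WT) against 109 and 79.9 CPM (PAD4-DN). The libraries stood apart in collagen, in a way the genotypes do not follow: Col1a1 was at 15.96 and 531 CPM (WT) against 652 and 16.9 CPM (PAD4-DN), and Col1a2 at 0.879 and 404 CPM against 467 and 3.94 CPM. WT replicate 2 and PAD4-DN replicate 1 were thus the high libraries, and each result is also given without the library it rests on. In bulk samples fewer cells of a type and less RNA per cell cannot be told apart.

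Levels between genes can be compared only per length, on the TPM scale (transcript copies scaled to a fixed total per library). On that scale the adaptor Sting1 was the most abundant of the 10, at 53.2 and 51.3 TPM (WT) against 44.4 and 41.2 TPM (PAD4-DN). The DNA sensor Cgas was the least abundant, at 0.144 and 0.204 TPM (WT) against 0.202 and 0.194 TPM (PAD4-DN). Sting1 RNA thus exceeded Cgas RNA by 212 to 370 times in the 4 libraries, with Cgas resting on few reads. Between these ends, over all 4 libraries, came Rigi at 31.7 ± 9.52 TPM (mean ± SD, n = 4 here and in the next sentence), Tbk1 at 27.8 ± 2.78, Irf3 at 17.2 ± 2.47 and Mavs at 13.1 ± 1.36 TPM. Then followed Zbp1 at 12.9 ± 8.37, Trex1 at 4.47 ± 0.964, Ifih1 at 3.19 ± 1.69 and Dhx58 at 3.06 ± 2.85 TPM.

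Some neighbours in this order did not separate. Rigi exceeded Tbk1 in 2 of 4 libraries and Mavs exceeded Zbp1 in 2 of 4. Trex1 was above Ifih1, and Ifih1 above Dhx58, in 3 of 4 libraries. Sting1 was above Rigi in all 4 libraries although their ranges overlapped. Tbk1 over Irf3, Irf3 over Mavs, Zbp1 over Trex1 and Dhx58 over Cgas held in all 4, and of these pairs no ranges overlapped. These values sum all transcripts of a gene, coding or not. Coding transcripts held 43.5% to 57.8% of TPM for Rigi and 47.8% to 67.5% for Tbk1. They held 53.6% to 75.5% for Irf3 but 86.3% to 93.9% for Mavs. In coding RNA Mavs was therefore above Irf3 in both WT libraries and PAD4-DN replicate 1, and below it in PAD4-DN replicate 2. The order of the other genes need not hold for coding RNA either. Among the 13718 genes tested, Sting1 ranked between the 76.7th and 82.8th percentile of TPM and Cgas between the 2.18th and 3.86th.

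**Figure D1:**
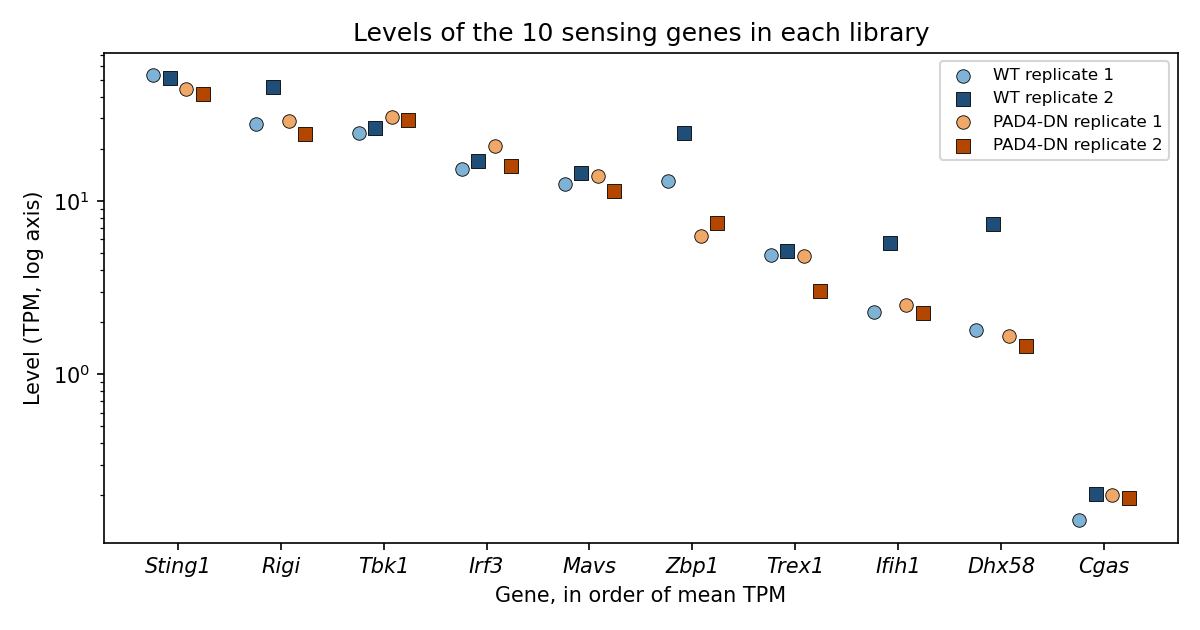
Level of each of the 10 genes in TPM on a log axis, with genes in order of their mean and 1 point per library. Sting1 stands between 41.2 and 53.2 TPM and Cgas between 0.144 and 0.204 TPM, and Zbp1, Rigi, Ifih1 and Dhx58 have WT replicate 2 as their highest point.

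The comparison asked whether these genes differ in tumour cells from hosts whose neutrophils lack Padi4. With edgeR's quasi-likelihood test 0 of the 10 genes passed a false discovery rate of 0.05, as did 0 of all 13718 genes (0%). At an unadjusted p under 0.05, edgeR gave 2 of the 10, Zbp1 and Sting1, both lower in PAD4-DN, against 2.65% of all genes in either direction and 1.42% in the lower direction. DESeq2 and limma-voom also called 0 of the 10, while over all genes DESeq2 called 10 of the 21921 with at least 1 count (0.0456%), 11 of the 13718 (0.0802%) and limma-voom 0. The count at an unadjusted p under 0.05 depended on the method. DESeq2 gave 4 of the 10 in both runs, against 367 of 21921 and 364 of 13718 genes. It was 5 by edgeR without the low-count filter (737 of 21921 genes) and 2 by limma-voom (362 of 13718). By limma-trend on log2(TPM + 1) it was 1 of 9 (388 of 12044). The median log2 fold change, PAD4-DN minus WT, was -0.42 over the 10 genes and 0.01 over all genes tested. It was negative for 8 of the 10, against 48.5% of all genes. The PAD4-DN pair was below the WT pair for 3 of the 10, Zbp1, Sting1 and Trex1, against 17.4% of all genes, and above them for 0 of the 10, against 15.4%. On the TPM scale the PAD4-DN pair was below the WT pair for Zbp1, Dhx58, Sting1 and Trex1, against 10.5% of all genes, and above it for Tbk1, against 22.9%. The coding transcript of Dhx58 was at 1.13 and 5.61 TPM (WT) against 1.34 and 0.879 TPM (PAD4-DN), so in coding RNA the genotypes overlapped. The share of negative log2 fold changes over all genes was 38.2% by limma-trend on log2(TPM + 1). With 2 libraries a group an exact permutation test cannot give a two-sided p below 0.333.

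WT replicate 2 was the highest of the 4 libraries for 7 of the 10 genes, against 22.3% of all genes. Its lead was only 1.02 times for Cgas, 1.04 times for Sting1 and 1.08 times for Mavs. In TPM it was also highest for 7, with Trex1 in place of Sting1, against 21.7% of all genes. For 6 of the 10 the gap between the WT libraries was larger than the difference between the genotype means, against 56.6% of all genes. Without WT replicate 2 the median over the 10 genes was -0.10, and that over all genes was 0.02. The number of the 10 at an unadjusted p under 0.05 by edgeR was then 0, against 1.82% of all genes. Without WT replicate 1 it was 4 (Zbp1, Rigi, Ifih1 and Dhx58), against 2.81% of all genes. It was 2 without PAD4-DN replicate 1, against 6.63%, and 1 without PAD4-DN replicate 2, against 6.42%.

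**Figure D2:**
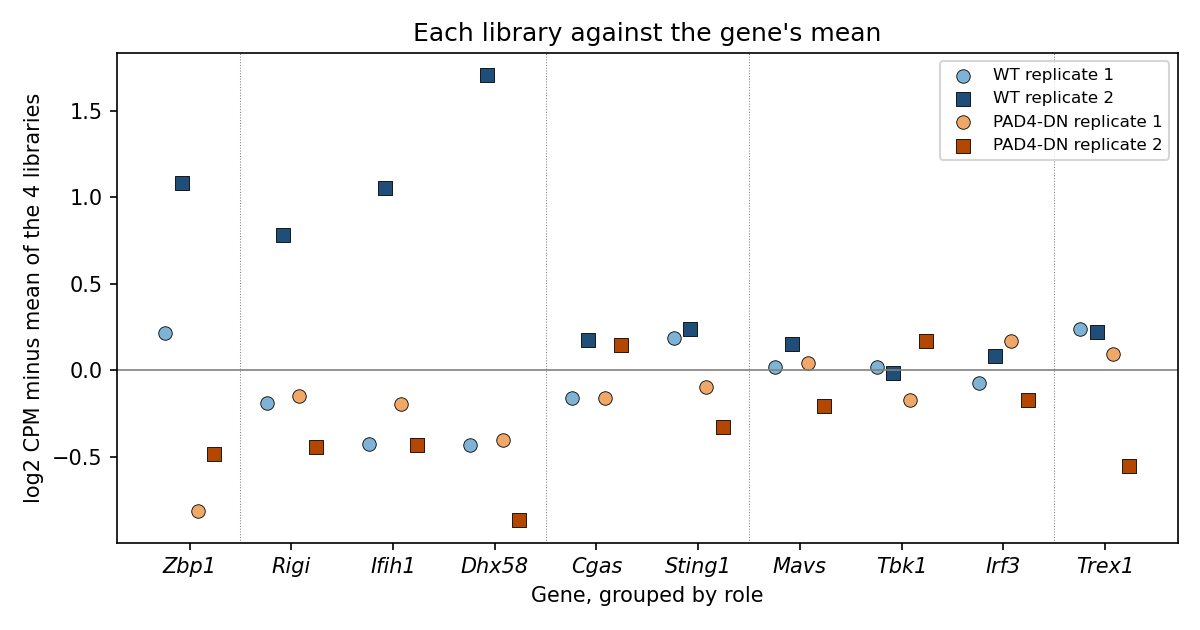
log2 CPM of each gene minus its mean over the 4 libraries, with genes grouped by role and 1 point per library. WT replicate 2 stands apart for Zbp1, Rigi, Ifih1 and Dhx58, while for Mavs, Tbk1 and Irf3 the libraries mix.

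Zbp1 binds Z-form nucleic acid, including that of endogenous retroelements, and can start necroptosis. It was at 10.6 and 19.2 CPM (WT) against 5.17 and 6.50 CPM (PAD4-DN). The PAD4-DN pair thus stood below the WT pair, and WT replicate 2 was 1.82 times WT replicate 1. The log2 fold change by edgeR was -1.35 (SE 0.34), a ratio of 0.393, with an unadjusted p of 0.00884 and an adjusted p of 0.988. It was -0.85 without WT replicate 2, with an unadjusted p of 0.0531 by edgeR, and -1.71 without WT replicate 1.

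Of the 3 Zbp1 transcripts, the coding one with most counts had 165 and 328 estimated counts (WT) against 67.6 and 107 (PAD4-DN). The other coding one had 72.5 and 139 (WT) against 26.1 and 32.7 (PAD4-DN), so both coding transcripts had the same order of libraries. The transcript with a retained intron differed, with 2.17 and 16.8 counts (WT) against 12.3 and 14.99 (PAD4-DN). Coding transcripts alone gave 10.5 and 18.5 CPM (WT) against 4.57 and 5.87 CPM (PAD4-DN).

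Genes downstream of Zbp1 in cell death were given as a list of 5, of which 0 passed by edgeR in either direction, and of which 0 had an unadjusted p under 0.05. Mlkl, the executioner of necroptosis, was at 65.9 and 65.6 CPM (WT) against 47.4 and 56.8 CPM (PAD4-DN), giving a log2 difference of -0.34 (SE 0.14, adjusted p = 0.988 by edgeR). Ripk3, the kinase that joins Zbp1 to Mlkl, had only 2 and 14 counts (WT) against 16 and 2 (PAD4-DN). Casp8, the protease that restrains necroptosis, was at 45.6 and 55.9 CPM (WT) against 44.9 and 47.0 CPM (PAD4-DN), and its adaptor Fadd at 13.0 and 10.8 against 9.90 and 11.02 CPM.

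The RNA sensors had 1 pattern in common: WT replicate 2 was high and the other libraries lay close together. Rigi was at 47.7 and 93.6 CPM (WT) against 49.0 and 39.9 CPM (PAD4-DN). Ifih1 was at 6.02 and 16.8 CPM (WT) against 7.07 and 5.99 CPM (PAD4-DN). Dhx58 was at 2.15 and 9.48 CPM (WT) against 2.20 and 1.59 CPM (PAD4-DN). WT replicate 2 exceeded the next highest library by 1.91 times for Rigi, 2.38 times for Ifih1 and 4.32 times for Dhx58, and in CPM the genotypes overlapped for all 3.

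The log2 fold changes by edgeR were -0.67 (SE 0.33) for Rigi, -0.81 (SE 0.49) for Ifih1 and -1.62 (SE 0.72) for Dhx58, with adjusted p = 0.988 for each. Without WT replicate 2 they became -0.10, 0.12 and -0.19, and without WT replicate 1 -1.07, -1.36 and -2.32. The direction for Ifih1 therefore turned once that 1 library was left out. For Dhx58, with 239 counts in WT replicate 2 and 38 to 49 in the others, exact 95% Poisson intervals for counting error were 8.32 to 10.8 CPM in WT replicate 2 and 1.59 to 2.85 CPM in WT replicate 1.

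Genes used here as markers of other cells varied over the same libraries, and which cells expressed them was not tested. Of the 8 pan-leukocyte markers 7 were highest in PAD4-DN replicate 1 and 6 were lowest in PAD4-DN replicate 2, and Itgb2 alone, at 70.9 and 42.8 CPM (WT) against 72.0 and 73.3 CPM (PAD4-DN), made up most of their sum. The 10 macrophage markers summed to 43.2 and 44.1 CPM (WT) against 84.8 and 12.2 CPM (PAD4-DN), and 9 of them were highest in PAD4-DN replicate 1. The 8 fibroblast markers summed to 1859 and 2626 CPM (WT) against 3082 and 2204 CPM (PAD4-DN), so their sum was higher in WT replicate 2 than in WT replicate 1. Between those libraries Col1a1 and Col1a2 differed most, as given above, and the order of the sums rests on these collagens. Only Dcn, at 981 and 770 CPM, and Fap, at 26.5 and 12.1 CPM, were lower in WT replicate 2 than in WT replicate 1. In PAD4-DN Dcn was at 981 and 1045 CPM, so it did not follow the collagens. Pi16 did, at 0.615 and 13.4 CPM (WT) against 14.4 and 1.17 CPM (PAD4-DN). In WT replicate 2 no pan-leukocyte and no fibroblast marker was at its highest, and 1 macrophage marker was. The part of other cells in the pattern of the RNA sensors was not tested.

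The ratio of Rigi to Dhx58 in TPM was 15.5 in WT replicate 1, 17.4 in PAD4-DN replicate 1, 16.7 in PAD4-DN replicate 2 and 6.23 in WT replicate 2. The regulator Dhx58 was therefore higher in WT replicate 2 by a larger factor than the sensor Rigi. Among the 10 Rigi transcripts, the main coding one carried 63.6% to 70.6% of counts in each library, with 765 and 1619 estimated counts (WT) against 647 and 604 (PAD4-DN). The coding transcript of Dhx58 had 42.9 and 225 (WT) against 42.4 and 32.6 (PAD4-DN), so the high library was also high in coding RNA.

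Promoter windows of 300 bases, from 250 before to 50 after the annotated start, were read from RefSeq on GRCm38.p6 for 7 of the 10 genes. Zbp1 and Dhx58 had no window there. The chromosome that carries Sting1 was left out, so no window was read for that gene. Windows are shown for Rigi and Ifih1, which had the pattern above, and for Mavs, the adaptor they share, which did not. Capitals mark matches, on either strand, to the core of the interferon-stimulated response element, read as GAAA, any 2 bases (NN) and GAAA, or to its form with 1 spacer base, GAAA, any 1 base (N) and GAAA, which was added after the windows were read. The windows are chr4:40239776-40240075, minus strand, for Rigi, chr2:62646206-62646505, minus strand, for Ifih1 and chr2:131233813-131234112, plus strand, for Mavs.
Rigi: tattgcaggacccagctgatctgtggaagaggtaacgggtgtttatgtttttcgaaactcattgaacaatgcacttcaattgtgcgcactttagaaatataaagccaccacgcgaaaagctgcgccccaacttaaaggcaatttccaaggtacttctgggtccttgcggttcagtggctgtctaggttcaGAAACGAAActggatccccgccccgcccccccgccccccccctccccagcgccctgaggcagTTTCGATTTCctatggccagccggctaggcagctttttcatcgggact
Ifih1: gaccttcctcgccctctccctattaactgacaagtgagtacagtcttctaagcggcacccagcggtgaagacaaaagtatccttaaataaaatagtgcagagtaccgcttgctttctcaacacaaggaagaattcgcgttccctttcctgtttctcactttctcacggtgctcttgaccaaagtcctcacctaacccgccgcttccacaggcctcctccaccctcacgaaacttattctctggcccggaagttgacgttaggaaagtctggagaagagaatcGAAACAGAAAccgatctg
Mavs: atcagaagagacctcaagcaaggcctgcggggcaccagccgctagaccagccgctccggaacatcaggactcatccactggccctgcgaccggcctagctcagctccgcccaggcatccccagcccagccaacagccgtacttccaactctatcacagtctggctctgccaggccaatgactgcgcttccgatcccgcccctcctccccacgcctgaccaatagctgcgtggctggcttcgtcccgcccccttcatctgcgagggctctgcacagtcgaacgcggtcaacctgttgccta
The Rigi window holds the form with 1 spacer base on its own strand, starting 60 bases before the annotated start, and the form with 2 spacer bases on the other strand, 2 bases after it. The Ifih1 window holds the form with 2 spacer bases on its own strand, 32 bases after the start. No match was in the windows of Cgas, Mavs, Tbk1, Irf3 or Trex1. The form with 2 spacer bases was in 3.44% and that with 1 in 3.17% of 32851 such windows, and 6.27% held either. The chromosome of Sting1 was left out of these shares too. The matches given do not overlap one another, and a match describes letters only.

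Beside the RNA sensors, a list of 12 cofactors and regulators was read, of which 11 were tested and 0 passed by edgeR in either direction, with 0 at an unadjusted p under 0.05. Its median log2 fold change was -0.12, with 8 of 11 negative, against 48.5% of all genes. Without WT replicate 2 that median was -0.10. Trim25, a ubiquitin ligase that acts on RIG-I, was at 112 and 141 CPM (WT) against 87.7 and 103 CPM (PAD4-DN), giving a log2 difference of -0.40 (SE 0.16, adjusted p = 0.988 by edgeR). That difference was -0.23 without WT replicate 2. Trim65, a ubiquitin ligase that acts on MDA5, was at 18.3 and 18.6 CPM against 15.4 and 15.2 CPM. Pcbp2, which promotes loss of MAVS, was at 693 and 645 CPM against 592 and 596 CPM. For these 3 genes the genotypes did not overlap, as for 5 of the 11 in all, each lower in PAD4-DN, against 17.4% of all genes.

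Double-stranded RNA effectors, a list of 9 genes, had 8 of 9 log2 fold changes below 0, against 48.5% of all genes. Their median was -1.21. WT replicate 2 was again the highest library, for 8 of the 9, against 22.3% of all genes, and without it the median was 0.24. By edgeR 0 of the 9 passed in either direction, and 0 had an unadjusted p under 0.05. Oas3, an antiviral enzyme that double-stranded RNA switches on, was at 8.48 and 33.1 CPM (WT) against 11.8 and 6.04 CPM (PAD4-DN). Oasl1, a related gene without that enzyme activity, was at 1.63 and 5.31 against 1.51 and 0.713 CPM, and Oasl2 at 10.7 and 59.8 against 17.9 and 7.42 CPM.

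Cgas encodes the cytosolic DNA sensor. The WT libraries held 10 and 14 rounded counts of it (0.440 and 0.555 CPM) and the PAD4-DN libraries 9 and 13 (0.439 and 0.545 CPM). Exact 95% Poisson intervals ran from 0.201 CPM at the lowest to 0.932 CPM at the highest, overlapped throughout and cover counting error only. The log2 fold change was -0.01 (SE 0.57, adjusted p = 0.998 by edgeR), and no difference in Cgas was detectable at this depth. In each library except PAD4-DN replicate 1, all Cgas counts were in coding transcripts, and there 67.4% were.

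Sting1, the receptor for cGAMP, was at 60.3 and 62.5 CPM (WT) against 49.6 and 42.2 CPM (PAD4-DN). The PAD4-DN pair stood below the WT pair, and the WT libraries differed from each other by only 1.04 times. The log2 fold change was -0.42 (SE 0.14), a ratio of 0.747, with an unadjusted p of 0.0233 and an adjusted p of 0.988 by edgeR. It lay between -0.54 and -0.31 with each library left out in turn, but the unadjusted p by edgeR was 0.0833 without WT replicate 1, 0.107 when WT replicate 2 was left out and 0.0596 when PAD4-DN replicate 2 was. Of the 4 tested epithelial markers 2 had both PAD4-DN libraries lower, against 17.4% of all genes, and 1 had both higher, against 15.4%. The lower ones were Krt18, at 210 and 188 CPM (WT) against 178 and 158 CPM (PAD4-DN), and Krt19, at 1.19 and 1.35 CPM against 0.732 and 0.377 CPM. The higher one was Krt7, at 0.571 and 0.714 CPM (WT) against 1.12 and 1.38 CPM (PAD4-DN), and for Krt8 the genotypes overlapped. The part of these markers in the Sting1 values was not tested. Coding transcripts alone were at 48.1 and 48.5 CPM (WT) against 39.9 and 33.4 CPM (PAD4-DN), and carried 77.6% to 80.5% of the gene's counts. Most of the rest was a transcript with a retained intron, with 257 and 348 estimated counts (WT) against 187 and 195 (PAD4-DN).

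Of 12 regulators of cGAS and STING, 0 passed by edgeR in either direction, and 0 had an unadjusted p under 0.05. The median was -0.08, with 10 of 12 negative, against 48.5% of all genes. Without WT replicate 2 that median was -0.04. Rhbdf2, which encodes the iRhom2 protein that aids STING trafficking, was at 26.1 and 19.8 CPM (WT) against 15.6 and 18.2 CPM (PAD4-DN). Banf1, which encodes a chromatin factor that keeps cGAS off nuclear DNA, was at 70.2 and 70.1 against 62.4 and 54.3 CPM. G3bp1, a stress granule protein that aids cGAS binding to DNA, was at 274 and 286 against 256 and 239 CPM. The genotypes did not overlap for these 3 of the 12, each lower in PAD4-DN, against 17.4% of all genes.

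Trex1 degrades cytosolic DNA and so limits cGAS. It was at 3.12 and 3.09 CPM (WT) against 2.83 and 1.80 CPM (PAD4-DN). The genotypes did not overlap, but the gap between the PAD4-DN libraries exceeded the gap between PAD4-DN replicate 1 and WT. The log2 fold change was -0.43 (SE 0.38, adjusted p = 0.988 by edgeR), and was -0.13 without PAD4-DN replicate 2 and -0.78 without PAD4-DN replicate 1. With 43 to 78 counts a library, exact 95% Poisson intervals were 2.45 to 3.86 CPM in WT replicate 2 and 1.30 to 2.43 CPM in PAD4-DN replicate 2. In PAD4-DN replicate 1 the interval was 2.15 to 3.66 CPM, which overlapped those of both WT libraries.

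In GENCODE M21 transcripts of Atrip, a checkpoint gene on the same strand, run through Trex1, so the division of reads between them is an estimate. Atrip was at 15.6 and 14.5 CPM (WT) against 18.2 and 14.0 CPM (PAD4-DN), and the sum of Trex1 and Atrip at 18.8 and 17.6 against 21.0 and 15.8 CPM. In that sum the genotypes overlapped. Of the 2 Trex1 transcripts, 1 had 28.8 and 0 estimated counts (WT) against 27.1 and 15.3 (PAD4-DN), and the other 42.1 and 77.6 (WT) against 31.2 and 27.6 (PAD4-DN).

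A list of 11 other enzymes that clear or edit nucleic acid had a median log2 fold change of -0.11, and 0 of 11 passed by edgeR in either direction, with 0 at an unadjusted p under 0.05. Samhd1, which destroys deoxynucleotides, was at 99.8 and 160 CPM (WT) against 101 and 109 CPM (PAD4-DN). Adar, which edits self RNA so that MDA5 does not bind it, was at 45.0 and 71.3 CPM (WT) against 51.1 and 42.3 CPM (PAD4-DN). Without WT replicate 2 their log2 fold changes were 0.07 and 0.05, against -0.31 and -0.32 with all libraries. Skic2, an RNA helicase of the exosome route, was at 52.8 and 52.0 against 48.3 and 44.9 CPM, with both PAD4-DN libraries lower.

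**Figure D3:**
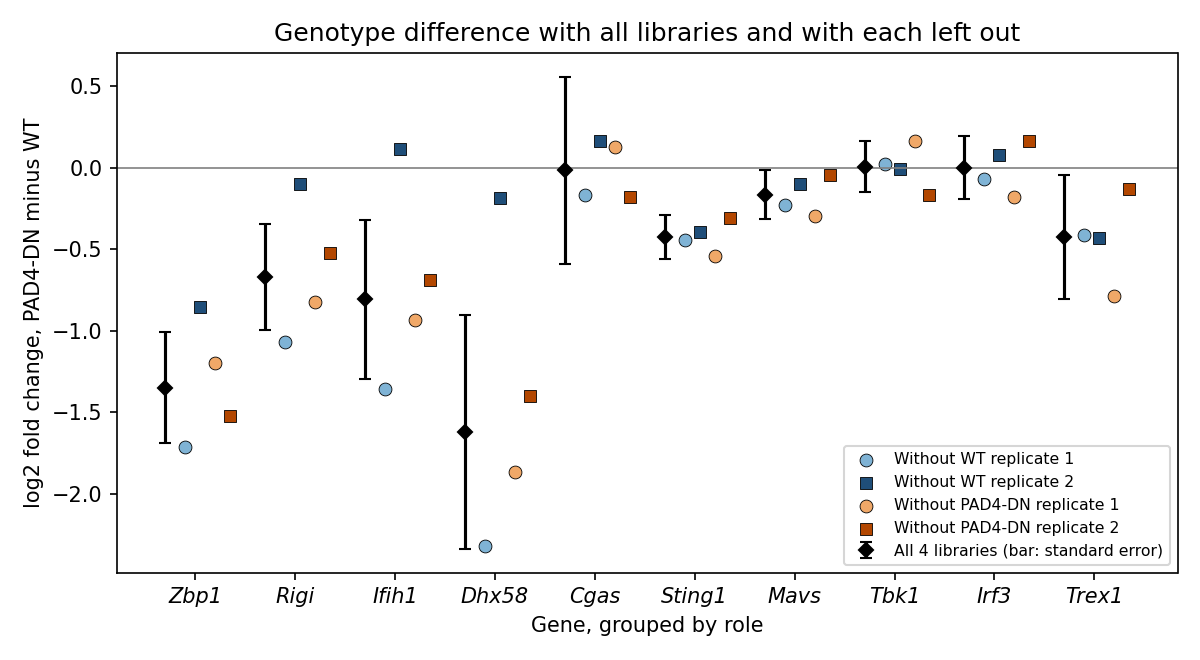
log2 fold change, PAD4-DN minus WT, for each of the 10 genes with all 4 libraries (diamonds, with standard errors) and with each library left out (points). Rigi, Ifih1 and Dhx58 move to between -0.19 and 0.12 without WT replicate 2, while Sting1 stays between -0.54 and -0.31 and Zbp1 between -1.71 and -0.85.

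The shared core of the pathway showed small differences. Mavs, the mitochondrial adaptor of RIG-I and MDA5, was at 25.5 and 28.0 CPM (WT) against 25.9 and 21.8 CPM (PAD4-DN). Tbk1, the kinase on which the RNA and DNA routes meet, was at 37.4 and 36.6 CPM (WT) against 32.8 and 41.5 CPM (PAD4-DN). Irf3, the factor it phosphorylates, was at 13.5 and 15.03 CPM (WT) against 15.96 and 12.6 CPM (PAD4-DN). In CPM the genotypes overlapped for all 3, and WT replicate 2 was the highest library only for Mavs, by 1.08 times. In TPM Tbk1 was at 24.7 and 26.3 (WT) against 30.7 and 29.5 (PAD4-DN), so there the PAD4-DN pair stood above the WT pair, with a log2 difference of 0.23 by limma-trend on log2(TPM + 1) (adjusted p = 0.967). Its main coding transcript did not share this order. That transcript was at 16.7 and 16.5 TPM (WT) against 14.7 and 19.1 TPM (PAD4-DN), so the genotypes overlapped.

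Their log2 fold changes by edgeR were -0.17 (SE 0.15, adjusted p = 0.988) for Mavs, 0.01 (SE 0.16, adjusted p = 0.997) for Tbk1 and 0.0014 (SE 0.19, adjusted p = 1.00) for Irf3. Mavs was at -0.04 without PAD4-DN replicate 2 and at -0.29 without PAD4-DN replicate 1. For Tbk1 and Irf3 the sign changed with the library left out. In TPM, the ratio of Rigi to Mavs was 2.21 and 3.16 (WT) against 2.07 and 2.12 (PAD4-DN), so it too was highest in WT replicate 2.

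Irf3 counts were spread over transcripts that differ in coding potential. Coding transcripts held 81.0% and 55.1% (WT) against 62.7% and 70.0% (PAD4-DN) of its counts. A transcript with a retained intron had 44.5 and 157 estimated counts (WT) against 95.3 and 80.1 (PAD4-DN). Coding Irf3 RNA was thus lowest in WT replicate 2, at 8.29 CPM, against 10.9 CPM in WT replicate 1 and 10.01 and 8.83 CPM in PAD4-DN, although total Irf3 RNA in that library was the second highest. Kallisto divides reads between overlapping transcripts by an estimate, and the error of this division is not in the tables used here. For Tbk1, coding transcripts held 88.2% to 95.1% of counts but 47.8% to 67.5% of TPM. For Mavs they held 87.3% to 94.2% of counts.

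**Figure D4:**
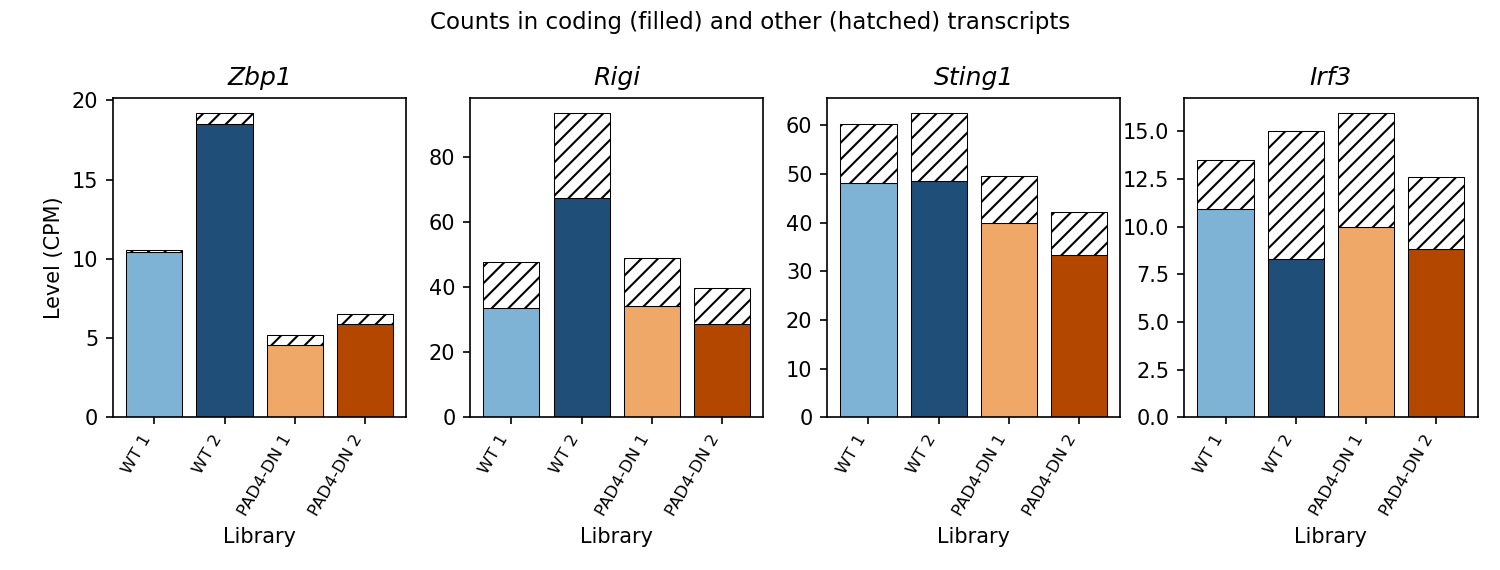
CPM of Zbp1, Rigi, Sting1 and Irf3 in each library, divided into protein-coding transcripts (filled) and other transcripts (hatched), on axes that start at 0. Coding Zbp1 and Sting1 RNA is lower in both PAD4-DN libraries than in both WT libraries, coding Rigi RNA is highest in WT replicate 2 at 67.4 CPM, and coding Irf3 RNA is lowest there.

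Downstream kinases, scaffolds and transcription factors, a list of 12, had 11 of 12 log2 fold changes below 0, against 48.5% of all genes. Their median was -0.20. By edgeR 0 of 12 passed in either direction, with 0 at an unadjusted p under 0.05, and without WT replicate 2 the median was -0.10. Tbkbp1, a scaffold of TBK1, was at 39.7 and 40.3 CPM (WT) against 34.8 and 33.1 CPM (PAD4-DN), with no overlap. Stat2 and Irf9, which form the factor that interferon receptors activate, followed the RNA sensors in having WT replicate 2 highest. Stat2 was at 20.1 and 54.1 CPM (WT) against 22.9 and 19.3 CPM (PAD4-DN), and Irf9 at 14.7 and 25.6 against 16.2 and 10.6 CPM.

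The nearest profiles to each gene were sought among 9672 protein-coding genes of at least 5 mean CPM, by Euclidean distance of log2(CPM + 1) centred over the 4 libraries. With 4 libraries many genes lie close, so these are descriptions. Ifih1 was closest to Stat2 (distance 0.066), then to Parp14 and Ifit2. Rigi was closest to Helz2 (distance 0.074), then to Tor3a and Psmb10. Dhx58 was closest to Eln, the elastin gene (distance 0.087), at 3.12 and 12.0 CPM (WT) against 3.32 and 2.39 CPM (PAD4-DN), and then to Usp18 and Igtp.

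Zbp1 had no neighbour as near. Its closest were Ntn4 (distance 0.411), Zfp365 and Rnf213 (0.484), and Ntn4 was at 15.1 and 18.5 CPM (WT) against 6.98 and 8.93 CPM (PAD4-DN). Sting1 was closest to Mrpl12, a mitochondrial ribosome gene (distance 0.055, 45.1 and 44.9 against 36.1 and 31.7 CPM), then to E2f4 and G6pc3. Trex1 was closest to Gga3, Glrx5 and Stard3. Mavs was closest to Gtf3c1, Tbk1 to Pcgf5 and Irf3 to Cmc2, at distances of 0.0058, 0.016 and 0.012, where the genes' own spread over the libraries was only 0.25, 0.23 and 0.25. Cgas, at under 1 CPM, has a spread of 0.11 on this scale and its nearest gene was Zdhhc13.

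**Figure D5:**
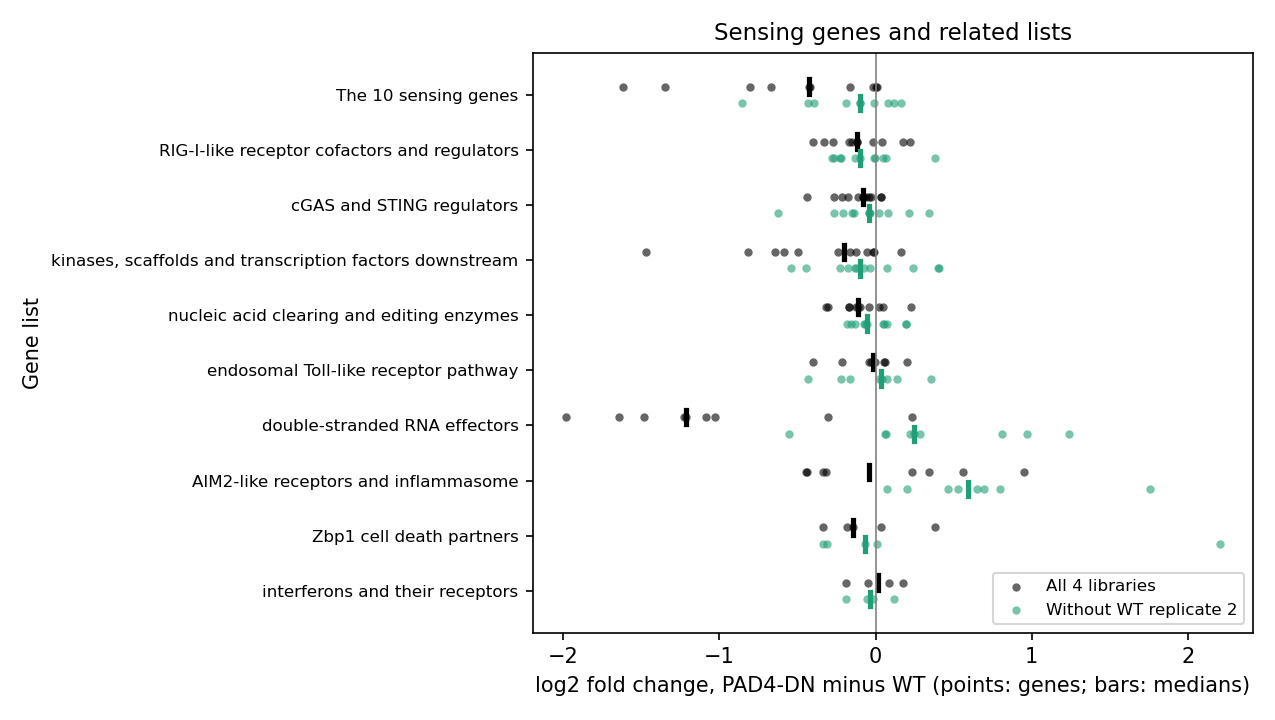
log2 fold change, PAD4-DN minus WT, of the 10 sensing genes and of each tested gene in 9 related lists (points), with medians as bars, from all 4 libraries (black) and without WT replicate 2 (green). The median of the double-stranded RNA effectors moves from -1.21 to 0.24 and that of the sensing genes from -0.42 to -0.10.

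Over the 9 related lists together, 80 of 91 genes were tested and 0 passed by edgeR in either direction, with 0 at an unadjusted p under 0.05 against 2.65% of all genes. Both PAD4-DN libraries were below both WT libraries for 22.5% of the 80, against 17.4% of all genes, and above them for 5.0%, against 15.4%. WT replicate 2 was the highest library for 42.5%, against 22.3% of all genes.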

How the data were processed

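Poly-A RNA of sorted LLC cells was sequenced in 4 libraries, 2 from WT and 2 from PAD4-DN hosts. Kallisto and GRCm39 are named in the submitters' processing notes. Of these tools no version or annotation release is stated in the sources used here. The authors deposited estimated counts, which need not be whole, and TPM values, which sum to 1000000 per library, for 117486 transcripts, per the file headers. Deposited lengths and effective lengths are in bases.

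Transcripts were matched without version to GENCODE M21 (116408 matched; the other 1078 held 0.483% to 0.493% of counts and were left out) and summed per gene. M21 is on an earlier build, so only the promoter windows carry coordinates, those of their own build. Counts were rounded and tested with edgeR 4.0.16 in R 4.3.3 (filterByExpr, TMM, quasi-likelihood test, Benjamini-Hochberg over 13718 genes at 0.05, no block). CPM values use TMM-scaled library sizes. The SE given with edgeR values is the absolute log2 fold change divided by the square root of the test's F statistic. Tests were tried on simulated data. Alternatives were DESeq2 1.42.0, limma 3.58.1 (voom, and trend on log2(TPM + 1) or log2(TPM + 0.1) for genes averaging at least 1 TPM), other filters and scalings, a replicate block and each library left out. DESeq2 on the filtered genes and a crossed block were added after the data were seen.

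The 10 genes, 9 related lists and 8 marker lists were chosen with earlier results of these data known. Named are the 10 genes, the 3 genes of smallest p per related list, Padi4, and the 3 nearest profiles per gene; exceptions are the cell type markers, Atrip, Ripk3, the untested interferon genes and Ifi203, named after their values were seen. Reads carry no molecular identifiers, so intervals cover counting error only.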

Additional observations from a re-analysis of the deposited data

How the results depend on the processing

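Over all genes, 10 were called by edgeR without the low-count filter and 10 by DESeq2 on genes with at least 1 count, 11 by DESeq2 on the filtered genes, and 0 to 2 with each library left out, against 0 in the reported fit; the 2 were without WT replicate 2, and the cause was not tested. Of the 10 sensing genes 0 were called under every alternative run. Their median log2 fold change was -0.66 to -0.10 with each library left out, and between -0.45 and -0.31 under the others that gave it. Zbp1, Rigi, Dhx58, Sting1, Mavs and Trex1 were negative under every alternative that tested them, the crossed block aside, which was read for its count of calls only, and the smallest adjusted p of Zbp1 was 0.133, by edgeR without the filter, against up to 1.00 elsewhere. On log2(TPM + 1) Sting1 was at -0.28 and Tbk1 at 0.23.

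Signs turned for genes near 0. Without the filter Tbk1 was at -0.0048 and Irf3 at -0.011, Irf3 was at -0.0035 by DESeq2 on genes with at least 1 count and -0.017 by limma-voom, and Cgas was at 0.081 with effective-length offsets. With each library left out, Ifih1 ran from -1.36 to 0.12, Cgas from -0.18 to 0.16, Tbk1 from -0.17 to 0.17 and Irf3 from -0.18 to 0.16.

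The replicate numbers are not stated to pair samples. Same-numbered libraries' deviations correlated at -0.344 over 13718 genes. With the replicate block 0 genes were called (309 at an unadjusted p under 0.05), the median over the 10 genes was -0.44, Tbk1 was at -0.0020 and Irf3 at -0.0058. With the crossed block 0 genes were called (412 at an unadjusted p under 0.05). A mean of at least 5 CPM left 7 of the 10 genes. Depth limits Cgas, Trex1 and Dhx58 most, and with 2 libraries a group a missing call does not show that a gene is alike in both genotypes.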

Other observations

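Interferon genes themselves were close to absent in the sorted cells. Ifnb1 had 2 counts in WT replicate 1 and 0 in the other 3 libraries, Ifna2 had 1 count in WT replicate 1 and 0 elsewhere, and Ifna4, Ifne, Ifng, Ifnl2 and Ifnl3 had 0 in all 4. At a count of 0, the room left by counting error alone was set at 3 counts, which is 0.119 CPM in WT replicate 2. This set value is not the exact Poisson interval used above. The receptor and kinase genes Ifnar1 (58.4 and 53.7 CPM against 64.0 and 62.5 CPM, WT first), Jak1 (435 and 375 against 395 and 464 CPM) and Tyk2 (20.7 and 24.7 against 20.5 and 19.3 CPM) were present in every library.

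In the endosomal Toll-like receptor list 0 of 8 tested genes passed by edgeR, with 0 at an unadjusted p under 0.05 and a median log2 fold change of -0.02. Tlr9, an endosomal DNA receptor, was at 2.20 and 2.10 CPM (WT) against 2.00 and 1.26 CPM (PAD4-DN), its chaperone Unc93b1 at 17.0 and 16.8 against 16.8 and 12.3 CPM, and the transporter Slc15a4 at 11.1 and 8.57 against 14.0 and 8.64 CPM. Of the AIM2-like receptors and inflammasome genes 0 of 8 passed, with 0 at an unadjusted p under 0.05. Aim2, a DNA sensor that does not use STING, was at 27.7 and 18.4 CPM (WT) against 23.2 and 35.2 CPM (PAD4-DN), so it was lowest in WT replicate 2. Of the 8 tested genes of this list 4 were instead highest in that library, against 22.3% of all genes. Among them was Ifi203, at 14.6 and 42.3 CPM (WT) against 25.1 and 16.9 CPM (PAD4-DN). Casp1 was at 10.9 and 10.4 against 13.7 and 11.4 CPM, and Nlrp3 at 0.791 and 0.635 against 2.15 and 0.629 CPM. The median of this list was -0.04 with all libraries and 0.59 without WT replicate 2.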
